A study of Mus musculus with 4 samples.

Results

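The genes described here are 9 genes of extracellular ATP and adenosine handling, namely *Nt5e*, *Entpd1*, *Adora2a*, *Ada*, *Dpp4*, *P2rx7*, *P2rx4*, *Slc29a1* and *Cd38*. They were chosen by name for their place in the pathway, with earlier results of these data known. They are 9 of the 47729 genes listed in the count table, and all 9 passed the filter on low counts. RNA was sequenced from regulatory T (Treg) cells of C57BL/6 mice, sorted as CD25+YFP+ cells from CD4 T cells. All mice were Foxp3 YFP-Cre/+ females. 2 libraries (replicates 1 and 2) came from mice that were Tfrc +/+, called WT, and 2 (replicates 1 and 2) from mice that were Tfrc fl/fl. The latter are labelled TfR1 cko, for conditional knockout, and are called the Tfrc-floxed libraries in the text and labelled TfR1-deficient in the plots. No treatment or time point separates the groups. Mice other than the hemizygous knockouts were age-matched at 6 to 8 weeks throughout the experiments, and no separate age is stated for these libraries. The comparison asks which transcripts of Treg cells change when the iron importer TfR1, encoded by *Tfrc*, is removed.

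Both genotypes carry the Foxp3 YFP-Cre allele, in which Cre and its YFP reporter are made from the *Foxp3* locus. *Foxp3* is X-linked and the females carry 1 such allele, so random X inactivation leaves Cre-negative Treg cells in the same animals, and only the YFP+ cells were sorted. The labels name the spleen as the tissue, whereas the study's legend also names lymph nodes. Whether a library held cells of 1 mouse or of several pooled mice was not given. The p-values therefore measure the spread between these libraries only, and none of the 9 genes encodes a protein used in the sort.

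Cells release ATP when stressed or damaged, and ATP outside the cell activates P2X channels. CD39, encoded by *Entpd1*, removes phosphates from ATP and ADP, and CD73, encoded by *Nt5e*, turns the resulting AMP into adenosine, which damps T cells through a Gs-coupled adenosine receptor encoded by *Adora2a*. Mouse Treg cells are known for carrying CD39 and CD73 together, and adenosine is then removed by deamination or uptake.

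The libraries held 10841939 to 17278448 counts. Levels are given as CPM, counts relative to the library total and scaled between libraries. *Tfrc* had WT values of 50.8 and 54.1 CPM and Tfrc-floxed values of 56.1 and 48.3 CPM. The groups overlapped, so the count over the whole gene does not check the label, and every direction below is between labelled genotypes. *Foxp3*, the defining Treg factor, was present in all libraries at 114 to 194 CPM, while of the 2 CD8 T cell markers *Cd8a* was at 0.0730 to 0.634 CPM and *Cd8b1* at 10.8 to 12.3 CPM. A list of B cell genes summed to 32.2 to 44.3 CPM, of which *Cd79b* gave 24.1 to 38.5 CPM, and the erythroid genes summed to 16.9 to 276 CPM. WT replicate 1 and Tfrc-floxed replicate 2 stood apart, with summed levels of 1184 and 3604 CPM for a list of 20 macrophage genes. The other 2 libraries, WT replicate 2 and Tfrc-floxed replicate 1, had sums of 97.9 and 73.1 CPM. Of the 20 genes, 18 were higher in both high libraries than in both others, including *Csf1r* (124 and 371 against 1.97 and 4.96 CPM), and 1 to 3 of the 20 were at 0 in each library. A list of 6 proliferation genes split the libraries into the same high and low pairs, with sums of 621 CPM in WT replicate 1 and 538 CPM in Tfrc-floxed replicate 2 against 155 and 153 CPM.

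In the Tfrc-floxed libraries, *Nt5e* was counted at 47.7% of its WT level and was the only one of the 9 genes to pass an unadjusted p under 0.05 with a log2 fold change of at least 0.5. *Dpp4*, *Adora2a*, *P2rx7* and *Slc29a1* were also below WT in both libraries, at 72.4%, 74.1%, 84.5% and 83.4% of the WT level. *Ada* and *P2rx4* were above WT in both. Among these genes only *Dpp4* had an unadjusted edgeR p under 0.05. Over all genes tested, 18.9% had both libraries below WT and 16% had both above. *Entpd1* and *Cd38* overlapped between the genotypes and were highest in Tfrc-floxed replicate 2, then in WT replicate 1. In edgeR's quasi-likelihood F test with adjustment over all 12536 genes, no adjusted p in the table was under 0.05 (0% of genes called), and the lowest of the 9 genes was 0.911. With 2 libraries a group, an exact two-sided permutation test of 1 gene cannot give a p below 0.333, so genes are described by their values, their intervals and whether they pass the unadjusted edgeR threshold. At an unadjusted edgeR p under 0.05 with no minimum change, 2 of the 9 genes passed, as did 655 of the 12536 genes tested.

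*Nt5e* lies on chromosome 9 (GRCm38.p6, 88327609 to 88372089), and *Entpd1* on chromosome 19 (40612366 to 40741602). *Adora2a* lies on chromosome 10 (75316877 to 75334792), *Slc29a1* on chromosome 17 (45585200 to 45599618), *Ada* and *Dpp4* on chromosome 2 (163726571 to 163750239 and 62330073 to 62412315), and *Cd38*, *P2rx7* and *P2rx4* on chromosome 5 (43868809 to 43912374, 122643927 to 122692336 and 122707518 to 122729739), all on GRCm38.p6 with counts taken over their exons. The 250 bases before their RefSeq start sites are shown because these genes encode the consecutive AMP-producing and AMP-consuming steps, of which only the transcript of the second separated the genotypes. The window of *Nt5e* (chr9:88327359-88327608, plus strand) and the first of the 2 windows of *Entpd1* (chr19:40612116-40612365, plus strand) each held 1 match to the core of the hypoxia response element, searched as ACGTG or GCGTG on both strands and printed in capitals.
Nt5e: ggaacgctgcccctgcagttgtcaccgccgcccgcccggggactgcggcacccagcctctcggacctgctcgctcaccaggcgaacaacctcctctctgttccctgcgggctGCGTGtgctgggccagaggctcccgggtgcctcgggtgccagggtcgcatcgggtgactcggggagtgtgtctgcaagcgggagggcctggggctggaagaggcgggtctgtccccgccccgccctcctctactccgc
Entpd1: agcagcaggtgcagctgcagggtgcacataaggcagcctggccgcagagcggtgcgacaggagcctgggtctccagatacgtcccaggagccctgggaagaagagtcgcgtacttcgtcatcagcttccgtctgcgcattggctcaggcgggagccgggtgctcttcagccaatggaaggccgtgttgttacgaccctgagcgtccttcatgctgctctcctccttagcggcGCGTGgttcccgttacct
The match began 138 bases before the start site in *Nt5e* and 18 bases before it in *Entpd1*. The bases were 72.0% G or C in the *Nt5e* window and 62.4% in the *Entpd1* window. RefSeq windows were matched for 8 of the 9 genes, those other than *Adora2a*. *Slc29a1* had a match in 4 of its 8 windows, and the windows of *Ada*, *Dpp4*, *P2rx7*, *P2rx4* and *Cd38* had none. Of all 32851 windows, 38.6% held a match, so a match is common, and it marks letters in the sequence and not a binding site.

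*Nt5e*, encoding the ectoenzyme that makes adenosine, was the most abundant of the 9 transcripts per kilobase of exon. It was counted at 605 and 457 CPM in WT replicates 1 and 2 and at 192 and 315 CPM in Tfrc-floxed replicates 1 and 2. Both Tfrc-floxed libraries were below both WT libraries. The means were 531 ± 105 CPM (SD, n = 2) and 253 ± 87.1 CPM (SD, n = 2). On the log2 scale this was a change of -1.07 ± 0.29 (SE), with a 95% interval of -1.80 to -0.33. It passed the unadjusted threshold in edgeR and in DESeq2, with an adjusted p of 0.911 in edgeR and 0.0939 in DESeq2. Within each genotype *Nt5e* was higher in the library with high macrophage genes. The log2 ratio of Tfrc-floxed replicate 1 to WT replicate 2, the libraries with low macrophage genes, was -1.25, and that of Tfrc-floxed replicate 2 to WT replicate 1 was -0.94. Without WT replicate 1 the log2 fold change was -0.83 and no longer passed the unadjusted edgeR threshold, so that call rests on that library.

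The 8 markers of Treg and CD4 T cells differed among themselves. They summed to 5753 and 5893 CPM in WT and to 5172 and 4436 CPM in the Tfrc-floxed libraries. *Ctla4*, which encodes an inhibitory receptor of Treg cells, had a log2 fold change of -0.81 ± 0.13 (SE) and was the only one of the 8 to pass the unadjusted edgeR threshold, with an adjusted p of 0.911 in edgeR and 6.36e-04 in DESeq2. *Foxp3* (-0.46), *Cd4* (-0.44), *Cd3e* (-0.43) and *Il2ra* (-0.22) had both libraries below WT without passing it. Among them *Cd3e* had an unadjusted edgeR p under 0.05, with a change below the minimum of 0.5. *Ikzf2* (-0.26), *Cd3d* (-0.09) and *Trac* (-0.09) overlapped between the genotypes. The part of this in the *Nt5e* difference was not tested, and in bulk RNA fewer cells of a type and less RNA per cell cannot be told apart.

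*Entpd1*, encoding the ATP- and ADP-degrading ectoenzyme upstream of CD73, was counted at 90.0 and 60.0 CPM in WT, with Tfrc-floxed values of 41.4 and 142 CPM. The lowest and the highest value were both in the Tfrc-floxed libraries, so the groups overlapped. The log2 fold change was 0.29 ± 0.58 (SE), with a 95% interval of -1.20 to 1.77. The higher library of each genotype was the one with high macrophage genes. The log2 ratio was -0.54 between the libraries with low macrophage genes and 0.66 between those with high macrophage genes, so its sign differed between the pairs. It was -0.86 without Tfrc-floxed replicate 2 and 0.95 without Tfrc-floxed replicate 1, past the unadjusted edgeR threshold both times, in opposite directions. The part of the macrophage genes in this result was not tested.

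The balance of the ectoenzyme transcripts within a library, which does not depend on scaling between libraries, was taken per kilobase. *Nt5e* exceeded *Entpd1* by 10.5 and 11.9 times in WT replicates 1 and 2 and by 7.21 and 3.45 times in the Tfrc-floxed libraries. *Nt5e* exceeded *Ada*, which encodes the deaminase that destroys adenosine, by 18.5 and 9.59 times in WT and by 3.29 and 5.65 times in the Tfrc-floxed libraries. Neither ratio overlapped between the genotypes, and both were lower in the Tfrc-floxed libraries. Both share the *Nt5e* level described above. The ratio to *Ada* had to separate, since *Nt5e* was lower and *Ada* higher in both Tfrc-floxed libraries. The lowest ratio to *Entpd1* was in Tfrc-floxed replicate 2, the library highest in macrophage genes, whose part was not tested. *Nt5e* exceeded *Dpp4* by 8.53 and 7.46 times in WT and by 4.05 and 6.51 times in the Tfrc-floxed libraries, also without overlap. *Adora2a* over *P2rx7* overlapped, at 3.7 and 3.90 in WT and 3.71 and 2.93 in the Tfrc-floxed libraries. With 2 libraries against 2, the exact two-sided permutation test of such a ratio cannot give a p below 0.333.

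*Cd38* encodes an ectoenzyme that consumes NAD and feeds a route to AMP that does not start from ATP. It was counted at 60.6 and 50.5 CPM in WT, with Tfrc-floxed values of 27.4 and 111 CPM. As for *Entpd1*, the Tfrc-floxed libraries held both the lowest and the highest value. The log2 fold change was 0.32 ± 0.63 (SE), with a 95% interval of -1.28 to 1.91. It was -0.88 between the libraries with low macrophage genes and 0.88 between those with high macrophage genes. It was -1.02 without Tfrc-floxed replicate 2 and 1.03 without Tfrc-floxed replicate 1, passing the unadjusted edgeR threshold in opposite directions, so 1 library decides its direction. The part of the macrophage genes in it was not tested.

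**Figure D1:**
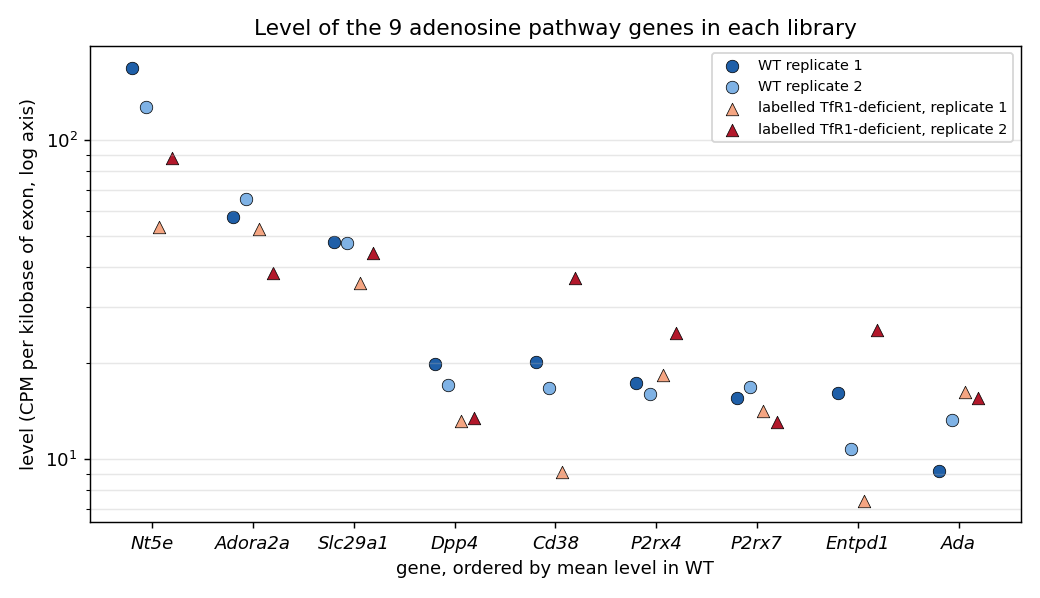
Level of each of the 9 genes in each library, in CPM per kilobase of exon on a log axis, with circles for WT and triangles for the Tfrc-floxed libraries. *Nt5e* is highest in all libraries and separates the genotypes (169 and 127 against 53.5 and 87.9), while *Cd38* and *Entpd1* spread most within the Tfrc-floxed libraries.

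*Adora2a* was the only adenosine receptor gene of the 4 to pass the filter on low counts, and *Adora1*, *Adora2b* and *Adora3* had at most 6 counts in any library. Its receptor raises cyclic AMP in T cells. It was counted at 145 and 166 CPM in WT, with Tfrc-floxed values of 133 and 97.1 CPM. Both of the latter were below WT, replicate 1 by a narrow margin. *Adora2a* had a log2 fold change of -0.43 ± 0.20 (SE), with a 95% interval of -0.95 to 0.08, and it did not pass the threshold.

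*P2rx7* and *P2rx4* encode ATP-gated channels, of which P2X7 needs high ATP and sensitizes mouse T cells to death, and they lie close together on chromosome 5. *P2rx7* was counted at 85.7 and 92.7 CPM in WT, with Tfrc-floxed values of 78.4 and 72.3 CPM. *P2rx4* was counted at 57.1 and 52.9 CPM in WT, with Tfrc-floxed values of 60.8 and 82.3 CPM. The neighbouring genes thus lay on opposite sides of WT, without overlap in either case. *P2rx7* had a log2 fold change of -0.24 ± 0.14 (SE) and *P2rx4* of 0.38 ± 0.19 (SE), neither passing the threshold, with 95% intervals of -0.60 to 0.11 and -0.12 to 0.87. The value of *P2rx4* in Tfrc-floxed replicate 2 stood above the other libraries, and its log2 ratio was 0.20 between the libraries with low macrophage genes and 0.53 between those with high macrophage genes, whose part in it was not tested.

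Adenosine is cleared outside the cell by adenosine deaminase, which CD26, encoded by *Dpp4*, anchors to the surface of T cells in man, and by uptake through the equilibrative transporter ENT1, encoded by *Slc29a1*. *Ada* was counted at 18.3 and 26.6 CPM in WT, with Tfrc-floxed values of 32.5 and 31.2 CPM. The latter were higher and close together, while WT replicate 1 was the lowest. For *Ada* the log2 fold change was 0.50 ± 0.25 (SE), with a 95% interval of -0.13 to 1.14.

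*Dpp4* was counted at 125 and 108 CPM in WT, with Tfrc-floxed values of 83.4 and 85.3 CPM. The groups did not overlap, and the Tfrc-floxed libraries differed from each other by less than the WT libraries did. *Dpp4* had a log2 fold change of -0.47 ± 0.15 (SE), with a 95% interval of -0.84 to -0.10. It had an unadjusted edgeR p under 0.05, while the size of the change was below the minimum of 0.5. With the replicate number as a block, and without WT replicate 1, Tfrc-floxed replicate 1 or Tfrc-floxed replicate 2, its p was no longer under 0.05. An annotated gene on the opposite strand covers 3.67% of its exon bases, and whether strand was used in counting was not stated. *Slc29a1* was counted at 192 and 191 CPM in WT, with Tfrc-floxed values of 143 and 178 CPM, and a gene on the opposite strand covers 6.86% of its exon bases. Both Tfrc-floxed values of *Slc29a1* were lower, with the WT libraries almost equal. Its log2 fold change was -0.26 ± 0.16 (SE), with a 95% interval of -0.67 to 0.15. The log2 ratio was -0.42 between the libraries with low macrophage genes and -0.12 between those with high macrophage genes. Without Tfrc-floxed replicate 1 the log2 fold change of *Slc29a1* was -0.08. The part of the macrophage genes in it was not tested.

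**Figure D2:**
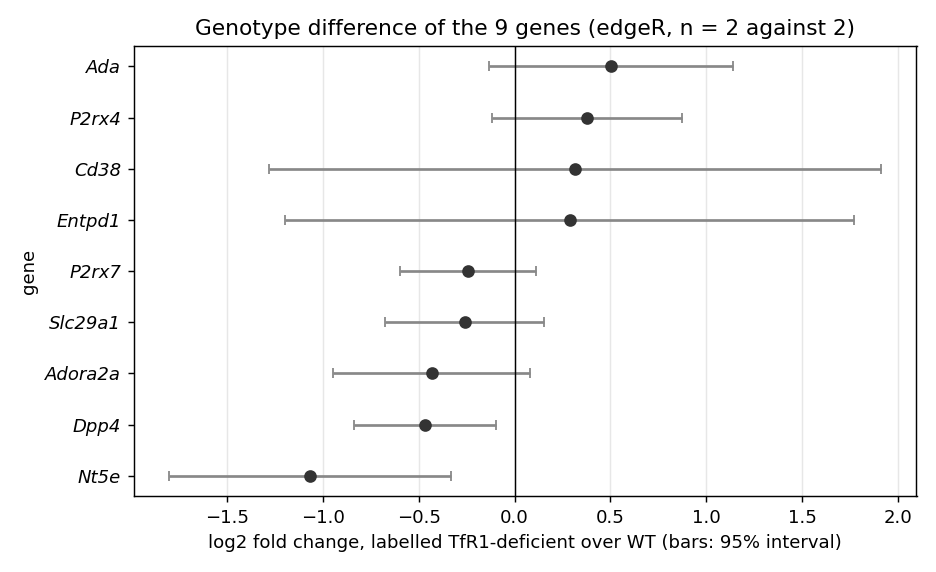
Log2 fold change of the 9 genes between the Tfrc-floxed libraries and WT, with points for the edgeR estimate and bars for its 95% interval (n = 2 against 2). The intervals of *Nt5e* and *Dpp4* lie below 0, and those of *Entpd1* and *Cd38* are the widest.

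5 of the 9 genes (55.6%) had both Tfrc-floxed libraries below both WT libraries, against 18.9% of all genes tested, and 2 of 9 (22.2%) had both above, against 16% of all genes. At an unadjusted edgeR p under 0.05 with a log2 fold change of at least 0.5, 1 of 9 was lower (2.48% of all genes) and 0 were higher (1.6% of all genes). DESeq2 likewise called 1 lower and 0 higher at its unadjusted p, with 2.45% and 1.64% of all genes. It called 0 of the 9 lower at its adjusted p, with 0.295% of all genes. The median log2 fold change was -0.24 over the 9 genes and 0.01 over all genes tested. The 9 genes and the wider list below were chosen with earlier results of these data known, so such shares and medians are descriptions only.

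In WT the order of levels per kilobase was *Nt5e* (148 CPM per kilobase), *Adora2a* (61.5), *Slc29a1* (47.9), *Dpp4* (18.5), *Cd38* (18.4), *P2rx4* (16.6), *P2rx7* (16.2), *Entpd1* (13.4) and *Ada* (11.2), all as mean CPM per kilobase. The ranges of the WT libraries did not overlap between *Nt5e* and *Adora2a*, *Adora2a* and *Slc29a1*, or *Slc29a1* and *Dpp4*, and they overlapped for every later pair of neighbours. On this scale *Nt5e* stood at percentile 94.9 of all genes tested, *Adora2a* at 88.3 and *Slc29a1* at 85.7, with the other 6 genes between 63.5 and 72.2. The AMP-degrading ectoenzyme, the receptor and the transporter were thus the abundant transcripts of the group.

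**Figure D3:**
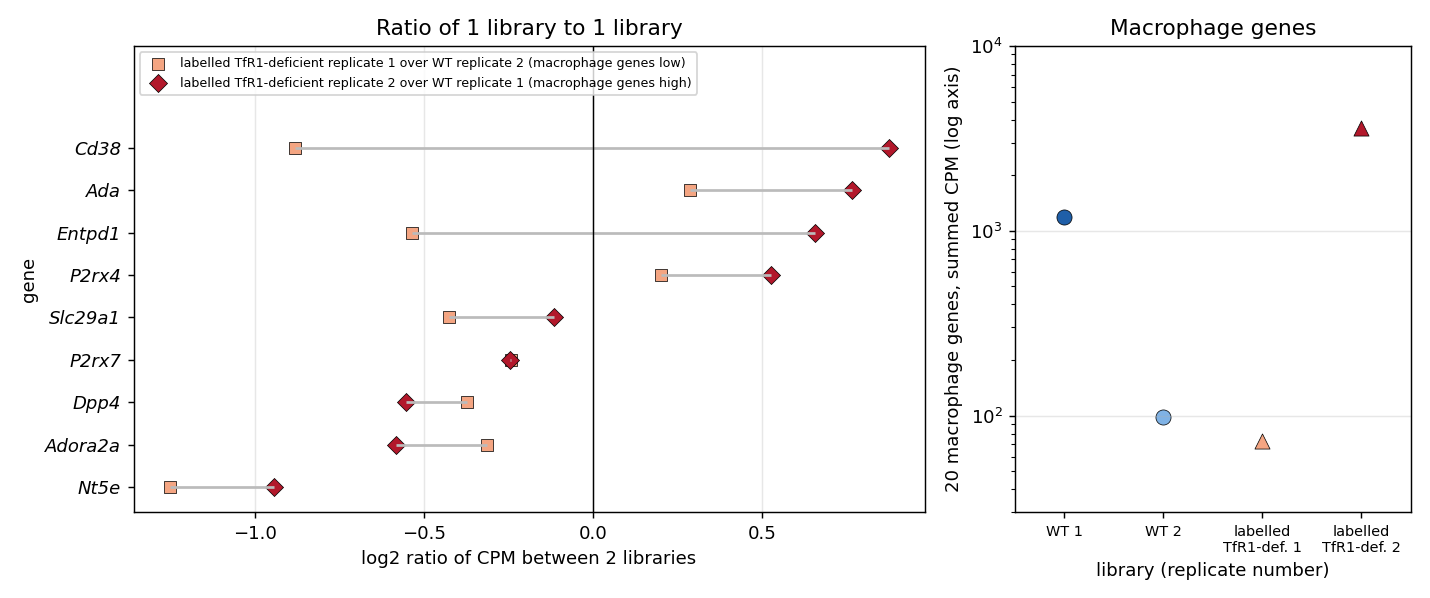
Left, log2 ratio of CPM between 2 libraries for each of the 9 genes, with squares for the pair low in macrophage genes and diamonds for the pair high in them. Right, summed CPM of 20 macrophage genes in each library on a log axis. *Cd38* (-0.88 and 0.88) and *Entpd1* (-0.54 and 0.66) change sign between the pairs, and the other 7 genes keep theirs.

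The wider pathway was described with a list of 80 genes in 10 roles, which includes the 9 and of which 60 passed the filter. 5 of the 60 were lower at the unadjusted edgeR threshold (*Nt5e*, *P2ry10*, *Art2b*, *Adcy7* and *Ampd2*; 8.33%) and 0 were higher, and both Tfrc-floxed libraries were below WT for 19 and above it for 10. The median log2 fold change of the 60 was -0.07, beside 0.01 over all genes. Without the 9 genes, 4 of 51 were lower (7.84%, against 2.48% of all genes), 14 (27.5%, against 18.9%) had both libraries below WT and 8 (15.7%, against 16%) had both above, the last a share near that of all genes.

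*P2ry10* was the only gene of the list to pass the adjusted threshold of DESeq2. It encodes a receptor of the P2Y family by sequence that responds to lysophosphatidylserine. It was counted at 171 and 173 CPM in WT, with Tfrc-floxed values of 110 and 95.3 CPM. The WT libraries were almost equal, and both others lay well below them. For *P2ry10* the log2 fold change was -0.74 ± 0.15 (SE), and it passed the unadjusted edgeR threshold, with an adjusted p of 0.911 in edgeR and 0.0273 in DESeq2. Its neighbour in sequence, *P2ry10b*, had a log2 fold change of -0.43, short of the threshold, and reads shared by the 2 genes could be split between them. *P2ry10* lies on chromosome X. The first of its 2 promoter windows (chrX:107088242-107088491, GRCm38.p6, plus strand) is shown for comparison with *Nt5e*. This window held 1 ACGTG, in capitals, beginning 138 bases before the start site. The other window of *P2ry10* and the only window of *Art2b*, also lower at the unadjusted edgeR threshold, held no match. Windows of *Adcy7* and *Ampd2*, lower at the same threshold, were not looked up. Since 38.6% of all windows held a match, the shared position is a description only.
P2ry10: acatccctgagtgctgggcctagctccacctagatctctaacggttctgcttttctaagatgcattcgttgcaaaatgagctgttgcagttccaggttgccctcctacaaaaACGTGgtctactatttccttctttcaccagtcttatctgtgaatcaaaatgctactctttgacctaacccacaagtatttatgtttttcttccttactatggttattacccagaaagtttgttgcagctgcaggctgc

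*Art2b*, *Adcy7* and *Ampd2* touch the 9 genes at other points. *Art2b* encodes an ADP-ribosyltransferase that uses NAD to modify P2X7 on mouse T cells, and it was counted at 60.0 and 57.0 CPM in WT, with Tfrc-floxed values of 39.2 and 36.2 CPM. Its log2 fold change of -0.63 ± 0.15 (SE) passed the unadjusted edgeR threshold. The closely similar *Art2a*, matched under the synonym *Art2a-ps*, had 0.22, short of it, and reads of the pair may have been split. *Adcy7*, a cyclic AMP-producing adenylyl cyclase, was counted at 284 and 239 CPM in WT, with Tfrc-floxed values of 172 and 164 CPM. Both values were below both WT values in each gene. The log2 fold change of *Adcy7* was -0.63 ± 0.15 (SE), past the unadjusted edgeR threshold. *Ampd2*, an intracellular AMP deaminase, was counted at 115 and 98.2 CPM in WT, with Tfrc-floxed values of 71.2 and 79.0 CPM, a log2 fold change of -0.51 ± 0.16 (SE) past the unadjusted edgeR threshold.

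Several genes of the list met only part of the criteria of p, size of change and non-overlap. *Prkacb*, a catalytic subunit of the cyclic AMP-dependent kinase, had a log2 fold change of -0.41, and *Entpd6*, a relative of *Entpd1* that acts inside the cell, had -0.36. Both had an unadjusted edgeR p under 0.05 and groups that did not overlap, with a change below the minimum. The groups also did not overlap, but with an unadjusted edgeR p above 0.05, for *Alpl* (-0.91), *Adcy9* (-0.94), *Slc29a2* (-0.55), *Prkar2b* (0.89) and *Pde4a* (0.77), all as log2 fold changes of genes counted at or below 8.35 CPM.

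The most abundant genes per kilobase in their roles, besides those above, differed less. Among these, *Slc17a9*, which loads ATP into vesicles, had a log2 fold change of 0.26 and *Nt5c*, an intracellular nucleotidase, had 0.08, neither passing the threshold. *Adk*, the kinase that returns adenosine to AMP, had -0.08, *Slc28a2*, a concentrative nucleoside transporter, had -0.28, and *Prkar1a*, a regulatory subunit of the cyclic AMP-dependent kinase, had -0.22, none of the 3 passing the threshold. *P2ry12*, *P2ry13* and *Enpp2*, named after their values were seen, followed the libraries with high macrophage genes. *P2ry13*, an ADP receptor, had 8.68 and 29.2 CPM in the high libraries of WT and Tfrc-floxed mice, against 0 and 0.346 CPM in the low ones. The part of the macrophage genes in these 3 was not tested.

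**Figure D4:**
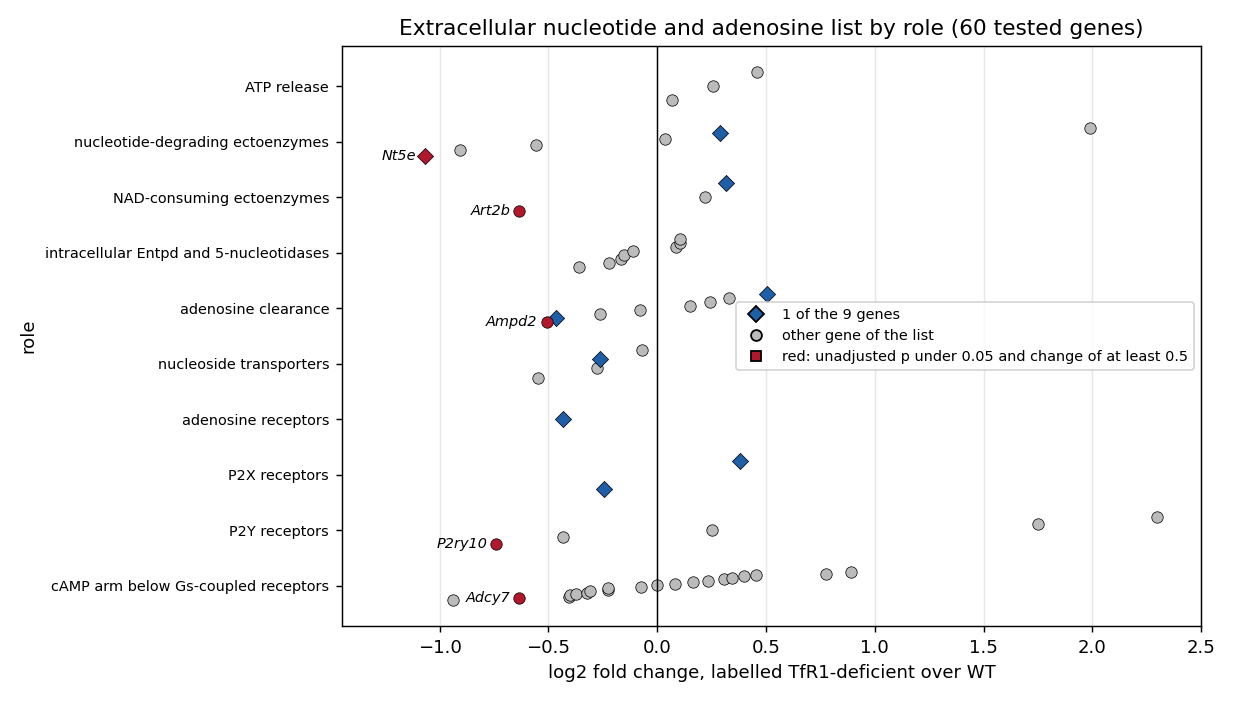
Log2 fold change of the 60 tested genes of the list by role, with diamonds for the 9 genes, circles for the others, and red for an unadjusted edgeR p under 0.05 with a change of at least 0.5. The 5 red genes, *Nt5e*, *Art2b*, *Ampd2*, *P2ry10* and *Adcy7*, are all lower in the Tfrc-floxed libraries.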

How the data were processed

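RNA from sorted Treg cells was made into mRNA libraries by a low-input NEBNext protocol (2 WT, 2 Tfrc-floxed). The authors deposited a table of raw read counts per Ensembl gene. The submitters' notes name Trim Galore 0.6.7, STAR 2.7.9a, featureCounts and mm10, whereas the study's methods name mm9; the counter's strand setting was not given in the sources used here. Symbols were found for 32799 of 47729 identifiers, and those without one held 0.907% of counts. No row was a total. Depth is given in the report, and the number of libraries limits the precision more than the counts do.

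Genes passing filterByExpr (12536) were tested with edgeR 4.0.16 (R 4.3.3; quasi-likelihood F test, TMM scaling, genotype only), with Benjamini-Hochberg adjustment over all of them. SE is the log2 fold change over the square root of F. CPM values are scaled by TMM. Exon lengths and exon overlaps are from the merged exons of GENCODE vM1, and coordinates are from RefSeq GRCm38.p6. Promoter windows are the 250 bases before RefSeq start sites. DESeq2 1.42.0, other scalings, filters and minimum changes, the replicate number as a block and each library left out were the alternatives. Scripts were tested on simulated data. Replicates differed beyond counting noise (chi-square per degree of freedom 29.3 in WT and 45.7 in the other group).

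The 9 genes and all lists were chosen with earlier results of these data known. Named genes are the 9, genes of the wider list with an unadjusted p under 0.05, genes whose groups do not overlap with a change of at least 0.5, and the most abundant gene per kilobase in each role, besides *Tfrc*, *Foxp3* and marker genes. Neither the reads nor counts per exon were analysed here.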

Additional observations from a re-analysis of the deposited data

How the results depend on the processing

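With 2 libraries a group, 1 library can decide a value. Of the 90 planned values of single genes, 77 kept their direction and side of an unadjusted p of 0.05, 6 newly passed it, 5 no longer did and 2 reversed. *Nt5e* stayed lower throughout, at -1.10 to -1.03 over tests, scalings, filters and the block and at -1.47 to -0.72 with a library left out. *Entpd1* reversed to -0.86 and *Cd38* to -1.02 without Tfrc-floxed replicate 2. Without both libraries high in macrophage genes, a choice made after seeing the data, they were at -0.54 and -0.88 with no test. Over the left-out libraries *Entpd1* ran from -0.86 to 0.95 and *Cd38* from -1.02 to 1.03. The cause was not tested.

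Unadjusted calls, higher and lower, ranged over the left-out libraries, where a lone library is assumed to vary like the other group, from 0 to 3 and 0 to 3 for the 9 genes, 0 to 5 and 2 to 7 for the list, and 169 to 353 and 131 to 382 for all genes. The 0 lower calls among the 9 came without WT replicate 1, and the 3 higher ones without Tfrc-floxed replicate 1. Without a minimum change 2 of the 9 and 8 of the list were lower, and 236 genes were higher and 419 lower among all 12536. With a minimum of 1, 1 of the list was lower, and 91 genes were higher and 104 lower in all. The filter keeping all genes of 1 count or more left 22368 genes tested, 75 of them in the list. With it, 3 of the list and 650 genes in all were higher at the unadjusted p. At the adjusted p that filter gave 1 of the 9 lower, 3 of the list higher and 2 lower, and 167 genes higher and 95 lower in all. The log2 fold change of *Nt5e* was -1.055 with that filter and -1.07 with the main one, so its size barely moved. DESeq2 gave 1 of the list lower, and 7 genes higher and 37 lower in all, at its adjusted p.

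Nothing in the labels or values pairs libraries by number. Same-numbered libraries deviated in opposite directions (correlation -0.609), and with a replicate block 70 genes were higher and 141 lower at the unadjusted p. The crossed pairing, chosen after seeing this, gave 1 higher of the 9, 4 higher of the list and 596 higher and 519 lower genes in all at the unadjusted p, and 1 lower of the 9, 1 higher and 5 lower of the list and 150 higher and 210 lower genes in all at the adjusted p.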
